A study of Mus musculus with 8 samples.

Results

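Genes of mineralization and of phosphate and citrate handling were examined across 4 populations of neonatal bone marrow stromal cells. They are *Alpl*, *Enpp1*, *Ank*, *Phospho1*, *Smpd3*, *Enpp6*, *Phex*, *Slc13a5* and *Panx3*, 9 of the 15880 genes in the table. They were chosen by gene symbol, and the only measured value in the choice was the mean, which would have picked the highest of several identifiers; each symbol had 1 identifier. The symbols were put forward with earlier results of these data known, among them the size of the *Slc13a5* difference between the Pdgfrα+ populations. Values of all 9 genes in that comparison, and in the interaction that contains it, are therefore given as a description, with no test. Other comparisons that share libraries with it are not independent of the choice, and their p is to be read with that limit.

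The cells came from pups heterozygous for *Nes-Gfp* on a C57BL/6 background, on postnatal day 1. Their GFP is driven by regulatory elements of rat nestin, so GFP marks activity of the transgene. Bones were digested with collagenase, and cells negative for CD45, CD31 and Ter119 were sorted by GFP and surface Pdgfrα into GFP+ Pdgfrα+, GFP- Pdgfrα+, GFP+ Pdgfrα- and GFP- Pdgfrα- populations. Each population has 2 libraries, 8 in all, and each library is a pool of 3 pups with 15000 to 80000 cells sorted per sample.

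Bone mineral forms where phosphate is released close to collagen and where pyrophosphate, an inhibitor of crystal growth, is broken down. Osteoblasts and hypertrophic chondrocytes bud matrix vesicles that carry phosphatases and phospholipid-cleaving enzymes, and osteocytes and osteoblasts also take part in the endocrine control of serum phosphate. Citrate is bound to the mineral surface in bone, and cells take it up through sodium-coupled carriers.

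A normalized value is the number of reads of a gene plus 0.5, per 1e6 of an effective library size. The libraries hold 3221217 to 5302762 reads on genes. A value of 3 reads, 0.825 to 1.04 depending on the library, was taken as the floor; it allows for counting error, not for the amplification of the cDNA. In bulk samples fewer cells of a type and less RNA per cell cannot be told apart.

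The sorting labels were compared with their own genes. *Pdgfra* had values of 733 and 754 in GFP+ Pdgfrα+ and 839 and 794 in GFP- Pdgfrα+ cells. It was 18.1 and 10.4 in GFP+ Pdgfrα- and 3.30 and 4.36 in GFP- Pdgfrα- cells. *Nes* was 149 and 176 in GFP+ Pdgfrα-, 57.6 and 72.0 in GFP+ Pdgfrα+, 27.4 and 47.1 in GFP- Pdgfrα+ and 3.59 and 9.08 in GFP- Pdgfrα- cells. *Pdgfra* separated the Pdgfrα+ from the Pdgfrα- libraries without overlap, and *Nes* was higher in the GFP+ population at either Pdgfrα state, although GFP- Pdgfrα+ cells also held *Nes* reads.

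The GFP- Pdgfrα- libraries stood apart in composition. Mitochondrial genes took 36.9% and 39.1% of their reads. The share was 24.2% and 22.2% in the GFP+ Pdgfrα- libraries and 13.0% to 14.5% in the Pdgfrα+ libraries. Most of it was the mitochondrial ribosomal RNA gene *mt-Rnr2*, which alone took 27.2% and 29.1% of the reads of the GFP- Pdgfrα- libraries. It took 17.6% and 15.6% in the GFP+ Pdgfrα- libraries and 9.52% to 10.8% in the Pdgfrα+ libraries. The summed value of 7 erythroid markers was 11316 and 18776 in these libraries and 33.7 to 145 in the others, with *Hbb-b1* the most abundant. The median log2 value of a library was 0.38 and 0.31 below the mean of the medians in the GFP- Pdgfrα- libraries. The median log2 fold change over all genes was 0.15 for GFP+ Pdgfrα- over GFP- Pdgfrα- cells, 0.17 for GFP- Pdgfrα+ over GFP- Pdgfrα- cells and 0.20 for GFP+ Pdgfrα+ over GFP- Pdgfrα- cells, and fold changes against GFP- Pdgfrα- cells below are to be read relative to that shift. Its sign depended on the scaling. In the same order it was -0.30, -0.28 and -0.28 with libraries centred on their median. With quantile normalization it was -0.14, -0.15 and -0.16. The part of composition in these differences was not tested.

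For 8 of the 9 genes both GFP+ Pdgfrα+ libraries lay above all the other 6 libraries; *Enpp1* was the exception. This pattern was found in 1130 of all 15880 genes (7.12%), and nothing is read from the gap because the genes were put forward with results known.

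**Figure D1:**
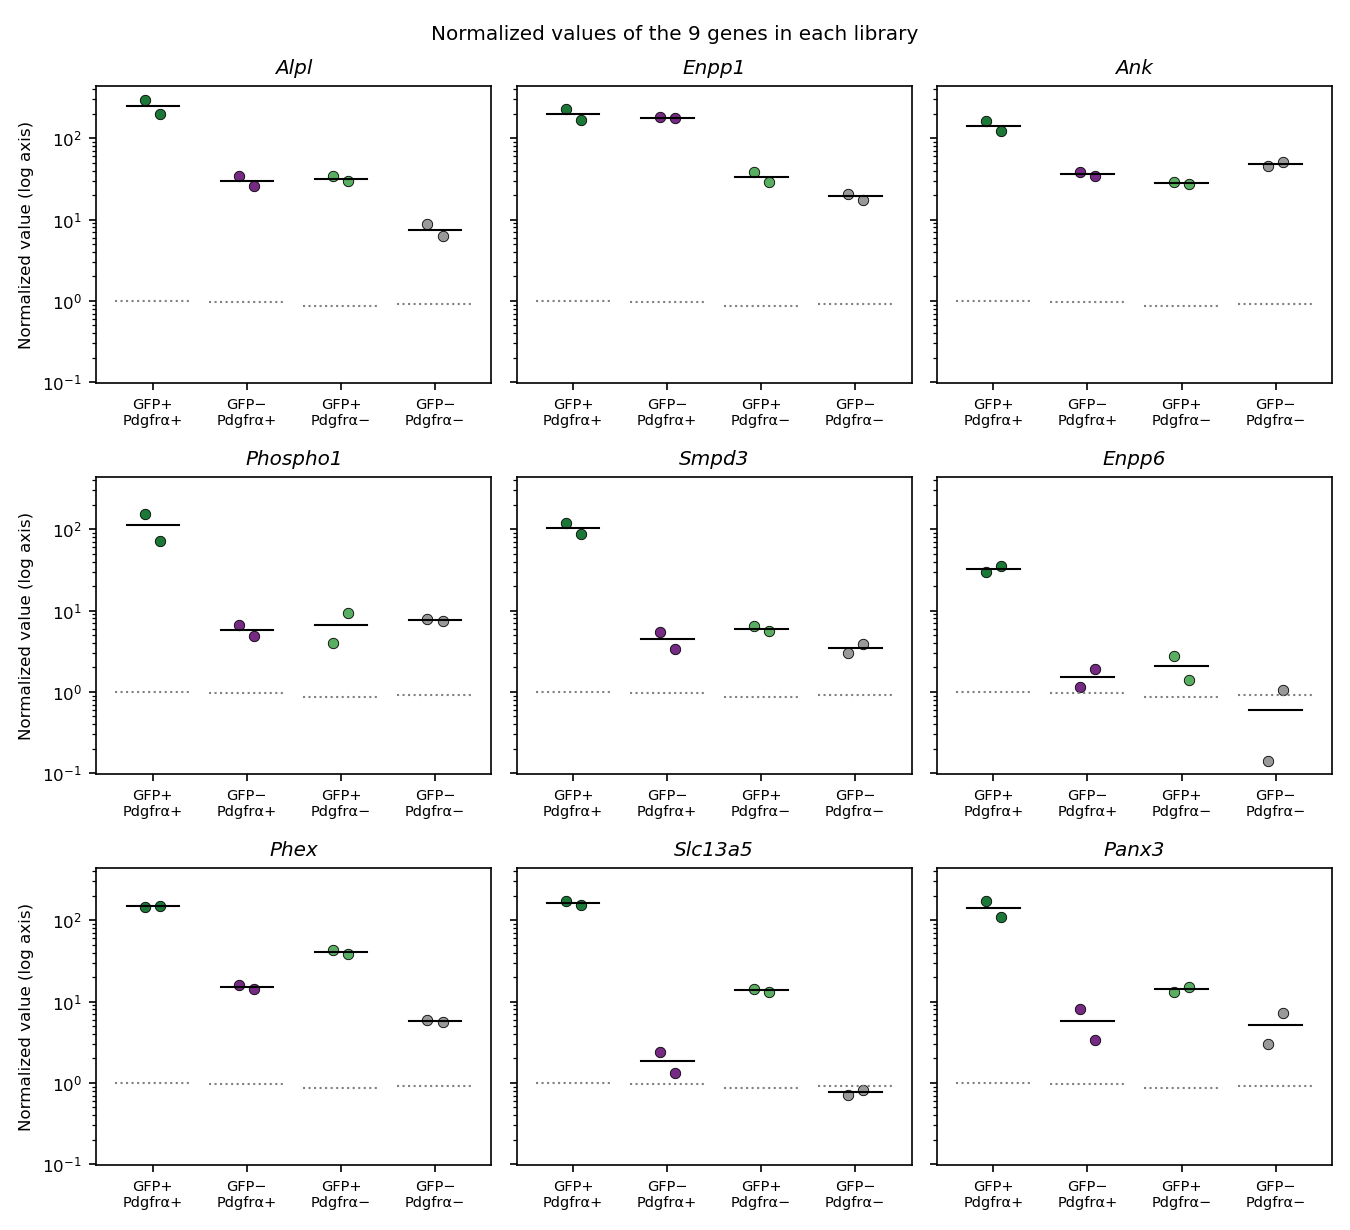
Normalized value (log axis) of each of the 9 genes in the 4 populations; points are the 2 libraries, solid lines their mean and dotted lines the floor of 3 reads. *Enpp1* is high in both Pdgfrα+ populations, whereas the other 8 genes are highest in GFP+ Pdgfrα+ cells.

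The first group of genes sets the level of extracellular pyrophosphate. *Alpl* encodes tissue-nonspecific alkaline phosphatase, an enzyme of the osteoblast and matrix vesicle membrane that hydrolyses pyrophosphate to phosphate. It lies at chr4:137297648-137352299 of NCBIM37, on the minus strand (ENSMUSG00000028766). The values were 298 and 201 in GFP+ Pdgfrα+, 34.4 and 25.7 in GFP- Pdgfrα+, 34.4 and 29.5 in GFP+ Pdgfrα- and 8.76 and 6.25 in GFP- Pdgfrα- cells. Libraries of GFP+ Pdgfrα+ cells were the highest and those of GFP- Pdgfrα- cells the lowest, whereas those of the populations with 1 of the markers overlapped. The mean of GFP+ Pdgfrα+ cells, 250 ± 69.0 (SD, n = 2), was 8.31-fold that of GFP- Pdgfrα+ cells. Over GFP+ Pdgfrα- cells the log2 fold change on the log2(value + 1) scale was 2.91 (standard error, SE, 0.25, adjusted p = 6.47e-06, limma). *Alpl* was also higher in GFP+ Pdgfrα- than GFP- Pdgfrα- cells (log2 fold change 1.96; limma, adjusted p = 2.92e-05) and in GFP- Pdgfrα+ than GFP- Pdgfrα- cells (log2 fold change 1.87; limma, adjusted p = 3.39e-05). The neighbours GFP+ Pdgfrα- and GFP- Pdgfrα+ did not differ beyond their spread (log2 difference 0.09, adjusted p = 0.826, limma), and the sign depended on which library was left out.

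*Enpp1* encodes the ectoenzyme that produces pyrophosphate from nucleotide triphosphates (ENSMUSG00000037370, chr10:24357720-24431965, minus strand). Its values were 230 and 169 in GFP+ Pdgfrα+, 179 and 176 in GFP- Pdgfrα+, 38.0 and 28.9 in GFP+ Pdgfrα- and 20.8 and 17.6 in GFP- Pdgfrα- cells. The 4 Pdgfrα+ libraries were high and the 4 Pdgfrα- libraries low, and the GFP+ Pdgfrα+ and GFP- Pdgfrα+ libraries overlapped. The means of these populations were 199 ± 43.2 (SD, n = 2) and 178 ± 2.21 (SD, n = 2), a log2 difference of 0.15 that fell to -0.08 without replicate 1 of the GFP+ Pdgfrα+ cells. With Pdgfrα the gene rose in both GFP states, by a log2 fold change of 2.53 in GFP+ cells (SE 0.19, adjusted p = 2.98e-06, limma) and of 3.15 in GFP- cells (SE 0.19, adjusted p = 4.03e-08, limma). It was 5.31-fold higher in GFP- Pdgfrα+ than GFP+ Pdgfrα- cells (log2 fold change 2.39; limma, adjusted p = 3.03e-06). The lowest step, GFP+ Pdgfrα- over GFP- Pdgfrα- cells, was 0.76 (adjusted p = 0.00528, limma), which did not hold when libraries were centred on their median (log2 fold change 0.31, adjusted p = 0.199, limma; over all alternatives adjusted p was 0.00174 to 0.199) nor when replicate 1 of GFP+ Pdgfrα- cells was left out (0.57, adjusted p = 0.0659).

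*Ank*, a membrane protein that moves pyrophosphate out of the cell, had another pattern (ENSMUSG00000022265, chr15:27396432-27524664, plus strand). It was 161 and 122 in GFP+ Pdgfrα+, 38.2 and 34.0 in GFP- Pdgfrα+, 29.0 and 27.7 in GFP+ Pdgfrα- and 45.8 and 50.3 in GFP- Pdgfrα- cells. Libraries of GFP+ Pdgfrα+ cells were the highest, those of GFP- Pdgfrα- cells came next, and no libraries of different populations overlapped. The mean of GFP+ Pdgfrα+ cells was 3.91-fold that of GFP- Pdgfrα+ cells. Set against GFP+ Pdgfrα- cells, GFP+ Pdgfrα+ cells had a log2 fold change of 2.27 (SE 0.18, adjusted p = 4.39e-06, limma) and set against the next population, GFP- Pdgfrα-, one of 1.52 (SE 0.18, adjusted p = 1.56e-05, limma). *Ank* was the 1 gene of the 9 with a call of lower values in GFP+ Pdgfrα- than GFP- Pdgfrα- cells (log2 fold change -0.74; limma, adjusted p = 0.00431). The step from GFP- Pdgfrα- to GFP- Pdgfrα+ cells (log2 difference 0.40, adjusted p = 0.0739, limma) was not called, and it was called with libraries centred on their median (adjusted p = 0.000983; range over the alternatives 0.000983 to 0.270). From GFP- Pdgfrα+ to GFP+ Pdgfrα- cells the step was 0.34 (adjusted p = 0.200, limma), also without a call.

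Levels of different genes were compared per kb of exonic length, with lengths of 4033 bp for *Alpl*, 10257 bp for *Enpp1* and 3608 bp for *Ank*. In GFP+ Pdgfrα+ cells the mean value per kb was 61.9 for *Alpl*, 39.2 for *Ank* and 19.4 for *Enpp1*. In GFP- Pdgfrα+ cells the order was turned, with 17.3 per kb for *Enpp1* and 7.45 for *Alpl*, and *Ank* between them. The ratio of *Alpl* to *Enpp1* per kb, computed after the values were seen, was 3.30 and 3.03 for GFP+ Pdgfrα+ cells and 2.30 and 2.59 for GFP+ Pdgfrα- cells. It was 0.488 and 0.371 for GFP- Pdgfrα+ cells and 1.07 and 0.905 for GFP- Pdgfrα- cells. The GFP+ libraries thus held more *Alpl* than *Enpp1* per length and the GFP- Pdgfrα+ libraries less. *Alpl* over *Ank* was 1.66 and 1.47 for GFP+ Pdgfrα+ cells, 1.06 and 0.953 for GFP+ Pdgfrα- cells, 0.806 and 0.676 for GFP- Pdgfrα+ cells and 0.171 and 0.111 for GFP- Pdgfrα- cells. Exonic length joins all annotated transcripts, so it can exceed that of the transcript in use.

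**Figure D2:**
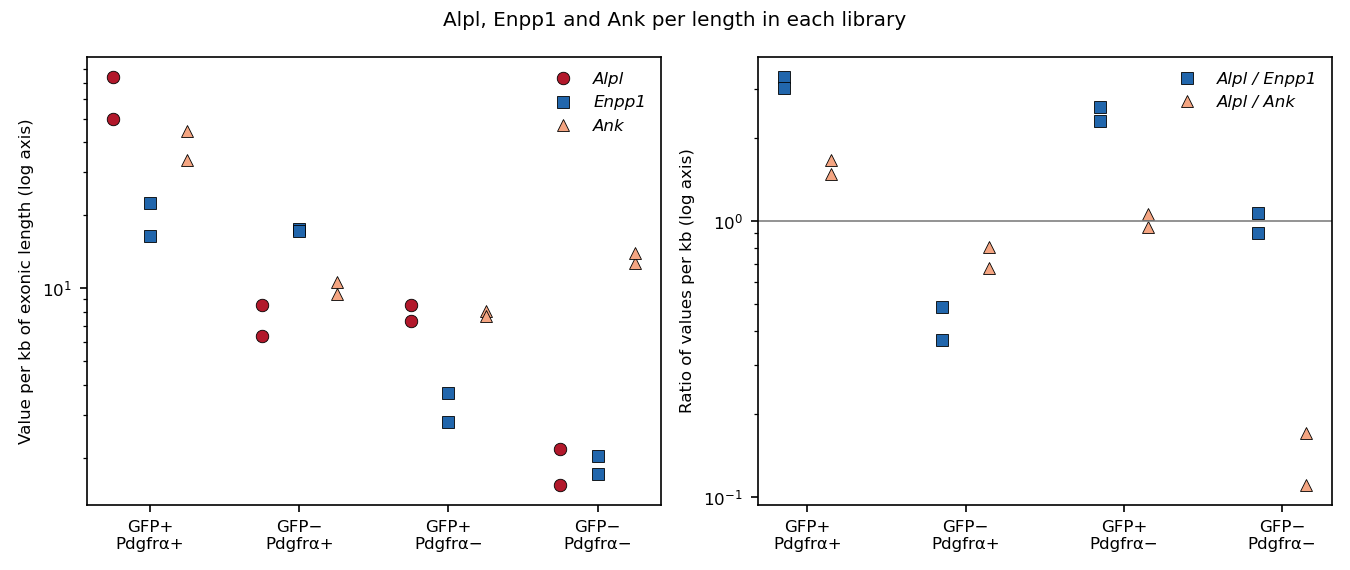
Left, value per kb of exonic length (log axis) of *Alpl*, *Enpp1* and *Ank* in each library; right, the ratio of *Alpl* to *Enpp1* and to *Ank* per kb (log axis), with a line at 1. The *Alpl* to *Enpp1* ratio lies between 2.30 and 3.30 in the GFP+ libraries and between 0.371 and 0.488 in the GFP- Pdgfrα+ libraries.

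The second group releases phosphate from membrane phospholipids. *Phospho1* encodes a soluble phosphatase of matrix vesicles that acts on phosphocholine and phosphoethanolamine (ENSMUSG00000050860, chr11:95685813-95693454, plus strand). Values of 153 and 71.7 were measured in GFP+ Pdgfrα+, 6.68 and 4.90 in GFP- Pdgfrα+, 4.01 and 9.39 in GFP+ Pdgfrα- and 7.90 and 7.43 in GFP- Pdgfrα- cells. Both GFP+ Pdgfrα+ libraries were far above the other 6, whose populations did not differ beyond their spread. Libraries of GFP+ Pdgfrα+ cells differed 2.14-fold from each other, more than for any other of the 9 genes, and the mean of 112 ± 57.6 (SD, n = 2) was 19.4-fold that of GFP- Pdgfrα+ cells. Against GFP+ Pdgfrα- cells the log2 fold change was 3.88 (SE 0.41, adjusted p = 3.58e-05, limma), with values of 2.81 and 4.94 when replicate 1 or 2 was left out in every population. Against the next population in the order, GFP- Pdgfrα-, it was 3.61 (adjusted p = 1.05e-05, limma). The lower steps were 0.26 from GFP- Pdgfrα- to GFP+ Pdgfrα- cells (adjusted p = 0.620, limma) and 0.10 from GFP+ Pdgfrα- to GFP- Pdgfrα+ cells (adjusted p = 0.894, limma), both of which changed sign with the library left out. Exons of *Phospho1* overlap *Zfp652* on the same strand and *Abi3* on the other, and the library preparation does not mark strand, so reads there cannot be told apart.

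*Smpd3* encodes neutral sphingomyelinase, which cleaves sphingomyelin to ceramide and phosphocholine (ENSMUSG00000031906, chr8:108779159-108789819, minus strand). Its libraries had 119 and 87.0 in GFP+ Pdgfrα+, 5.42 and 3.42 in GFP- Pdgfrα+, 6.43 and 5.53 in GFP+ Pdgfrα- and 3.02 and 3.89 in GFP- Pdgfrα- cells. Only the GFP+ Pdgfrα+ libraries stood out, and the other 6 lay within a narrow range. GFP+ Pdgfrα+ cells had a mean of 103 ± 22.6 (SD, n = 2), 23.3-fold that of GFP- Pdgfrα+ cells. Against GFP+ Pdgfrα- cells *Smpd3* had a log2 fold change of 3.88 (SE 0.33, adjusted p = 6.10e-06, limma). No lower step was called: it was 0.39 from GFP+ Pdgfrα- to GFP- Pdgfrα+ cells (adjusted p = 0.428, limma) and 0.26 from GFP- Pdgfrα+ to GFP- Pdgfrα- cells (adjusted p = 0.511, limma), and the latter turned to -0.42 with quantile normalization.

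*Enpp6*, a phosphodiesterase that releases phosphocholine from choline-containing lipids, was the lowest of the 9 genes per kb in GFP+ Pdgfrα+ cells (ENSMUSG00000038173, chr8:48072279-48180249, plus strand). Its values were 29.4 and 35.5 in GFP+ Pdgfrα+, 1.13 and 1.93 in GFP- Pdgfrα+, 2.79 and 1.41 in GFP+ Pdgfrα- and 0.144 and 1.06 in GFP- Pdgfrα- cells. Only the GFP+ Pdgfrα+ libraries were well above the floor. The mean of 32.5 ± 4.30 (SD, n = 2) was 21.2-fold that of GFP- Pdgfrα+ cells, a ratio that rests on 4 and 6 reads in the latter. Over GFP+ Pdgfrα- cells the log2 fold change was 3.46 (SE 0.44, adjusted p = 0.00014, limma). The steps between GFP+ Pdgfrα- and GFP- Pdgfrα+ cells (0.27, adjusted p = 0.698, limma) and between GFP- Pdgfrα+ and GFP- Pdgfrα- cells (0.70, adjusted p = 0.187, limma) were not detectable at this depth.

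Per kb, the mean level in GFP+ Pdgfrα+ cells was 52.3 for *Phospho1*, 52.3 for *Smpd3* and 52.8 for *Panx3*, with libraries that differed 2.14-fold, 1.37-fold and 1.59-fold. *Enpp6* was at 7.36 per kb in these cells. In GFP+ Pdgfrα- cells, *Phospho1* and *Smpd3* were at 3.11 and 3.04 per kb, and *Enpp6* at 0.477.

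*Phex* stands for the endocrine side of phosphate handling. It encodes a membrane endopeptidase whose loss causes X-linked hypophosphatemia, with raised Fgf23 and poorly mineralized bone (ENSMUSG00000057457, chrX:153596618-153853244, minus strand). The 2 GFP+ Pdgfrα+ libraries were at 147 and 148, those of GFP- Pdgfrα+ cells at 16.0 and 14.4, those of GFP+ Pdgfrα- cells at 43.6 and 38.7 and those of GFP- Pdgfrα- cells at 5.89 and 5.54. Libraries of a population lay close together, and the populations formed 4 separate levels without overlap. The mean of GFP+ Pdgfrα+ cells was 9.69-fold that of GFP- Pdgfrα+ cells. Each of the other steps in the order was called, from GFP+ Pdgfrα+ to GFP+ Pdgfrα- cells at a log2 fold change of 1.82 (SE 0.20, adjusted p = 4.36e-05, limma), from GFP+ Pdgfrα- to GFP- Pdgfrα+ cells at 1.38 (adjusted p = 0.000276, limma) and from GFP- Pdgfrα+ to GFP- Pdgfrα- cells at 1.27 (adjusted p = 0.00014, limma). *Phex* also rose with GFP among Pdgfrα- cells (log2 fold change 2.65; limma, adjusted p = 3.45e-07).

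*Slc13a5* encodes the sodium-coupled carrier that takes up citrate across the plasma membrane (ENSMUSG00000020805, chr11:72055496-72080724, minus strand). It was 171 and 152 in GFP+ Pdgfrα+, 2.40 and 1.34 in GFP- Pdgfrα+, 14.2 and 13.2 in GFP+ Pdgfrα- and 0.718 and 0.825 in GFP- Pdgfrα- cells. The GFP+ libraries were higher than the GFP- libraries at either Pdgfrα state, and GFP- Pdgfrα- cells were at the floor. The log2 difference between the Pdgfrα+ populations was 5.85 (standard error 0.32). Among Pdgfrα- cells, a comparison not known to have entered the choice, GFP+ cells were above the floor of GFP- cells (log2 fold change 3.06, standard error 0.32, adjusted p = 5.92e-06, limma). GFP+ Pdgfrα+ cells had 11.8-fold more than GFP+ Pdgfrα- cells (log2 fold change 3.46), and GFP+ Pdgfrα- cells had 7.36-fold more than GFP- Pdgfrα+ cells (log2 difference 2.39). The known difference had *Slc13a5* high in GFP+ Pdgfrα+ and low in GFP- Pdgfrα+ cells. Both comparisons share libraries with it, so no p is given for them. The step from GFP- Pdgfrα+ to GFP- Pdgfrα- cells was 0.67, with a range of 0.0025 to 1.36 over the alternatives. It shares the GFP- Pdgfrα+ libraries with the known difference, so no p is given for it either. Exons of *Slc13a5* overlap *1700051A21Rik* on the opposite strand, from which its reads cannot be told apart.

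*Panx3* encodes a pannexin channel of osteoblasts and hypertrophic chondrocytes that releases ATP (ENSMUSG00000011118, chr9:37467487-37476807, minus strand). Values were 172 and 108 in GFP+ Pdgfrα+, 8.19 and 3.42 in GFP- Pdgfrα+, 13.2 and 15.1 in GFP+ Pdgfrα- and 3.02 and 7.19 in GFP- Pdgfrα- cells. Highest were the GFP+ Pdgfrα+ libraries and next the GFP+ Pdgfrα- libraries, and those of the GFP- populations overlapped. The mean of 140 ± 45.4 (SD, n = 2) for GFP+ Pdgfrα+ cells was 24.2-fold that of GFP- Pdgfrα+ cells. The log2 difference of 4.43 ranged from 3.90 to 4.96 with a library or replicate left out. Compared with GFP+ Pdgfrα- cells, *Panx3* had a log2 fold change of 3.19 (SE 0.41, adjusted p = 0.000169, limma). The step from GFP+ Pdgfrα- to GFP- Pdgfrα+ cells was just past the threshold (2.44-fold, adjusted p = 0.0422, limma). The call ended with voom on the recovered reads (adjusted p = 0.113), without the trend, with a pseudocount of 0.1 (0.0597) or without any of 5 single libraries, with a range of 0.0159 to 0.322 over the alternatives. The step from GFP- Pdgfrα+ to GFP- Pdgfrα- cells was 0.15 (adjusted p = 0.774, limma), and it turned to -0.30 with libraries centred on their median and to -0.46 with quantile normalization. Among Pdgfrα- cells the gene was higher with GFP (log2 fold change 1.40; limma, adjusted p = 0.0131), a call that ended with libraries centred on their median (0.94, adjusted p = 0.0578), with quantile normalization (0.85, adjusted p = 0.0972), with voom (1.49, adjusted p = 0.0538) and without 3 single libraries in turn; the range over the alternatives was 0.00342 to 0.113.

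**Figure D3:**
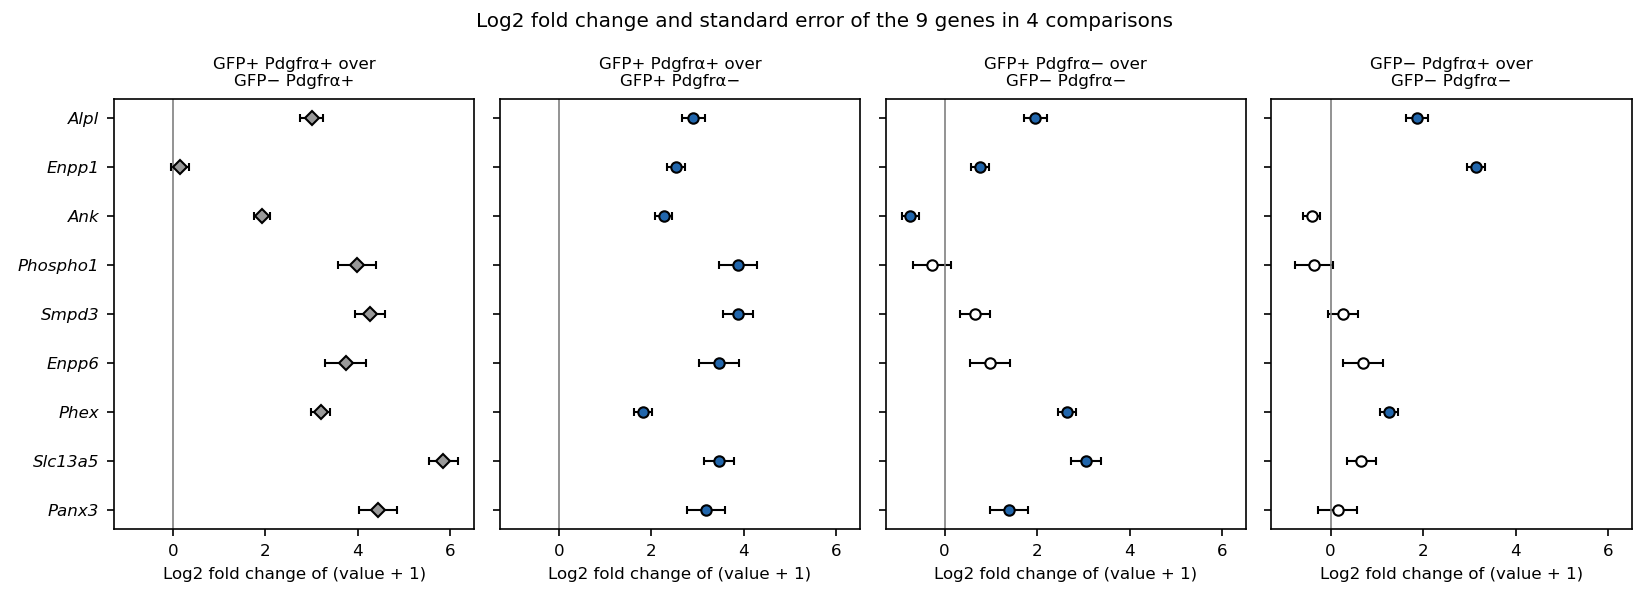
Log2 fold change on the log2(value + 1) scale, with its standard error, of the 9 genes in 4 comparisons. Blue circles were called in limma at an adjusted p of at most 0.05 and open circles were not. Grey diamonds mark the comparison given without a test, in which *Slc13a5* has the largest value (5.85) and *Enpp1* the smallest (0.15). Where another comparison shares libraries with that one, the circle of *Slc13a5* is a description and nothing is read from its colour.

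The comparisons share libraries, so their counts are given side by side and not set against each other. Between the Pdgfrα+ populations, both GFP+ Pdgfrα+ libraries lay above both GFP- Pdgfrα+ libraries for 8 of the 9 genes and for 23.4% of all genes. Limma called 3.22% of all genes higher and 2.13% lower there, and since this comparison was known when the genes were put forward, no call of theirs is given and nothing is read from the count. All 9 were called higher in GFP+ Pdgfrα+ than GFP+ Pdgfrα- cells, beside 13.1% of all genes higher and 11.1% lower. The count includes *Slc13a5*, for which no p is given because its level in the GFP+ Pdgfrα+ libraries was known. The median log2 fold change of the 9 genes there was 3.19, and that of all genes was -0.02. Over GFP- Pdgfrα- cells, GFP+ Pdgfrα+ cells had higher values of all 9 genes, with log2 fold changes of 1.52 for *Ank* to 6.52 for *Slc13a5*, beside 32.9% of all genes higher and 26.4% lower. *Slc13a5* was at least 176-fold above the floor of GFP- Pdgfrα- cells. The same GFP+ Pdgfrα+ libraries enter these comparisons, so their direction is not independent of the choice and nothing is read from the counts of 9.

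The comparisons without GFP+ Pdgfrα+ cells gave a mixed picture. Among Pdgfrα- cells, 5 of the 9 genes were higher with GFP (*Slc13a5*, *Phex*, *Alpl*, *Panx3* and *Enpp1*), 1 was lower (*Ank*) and 3 were not called, beside 30.1% of all genes higher and 23.6% lower. Among GFP- cells, 3 of the 9 were higher with Pdgfrα (*Enpp1*, *Alpl* and *Phex*) and 0 lower, beside 32.9% and 26.8% of all genes, so the share of higher calls is near that of the table. Between GFP- Pdgfrα+ and GFP+ Pdgfrα- cells 1 of the 9 was higher in GFP- Pdgfrα+ cells (*Enpp1*) and 3 were lower (*Slc13a5*, *Phex* and *Panx3*), beside 14.3% and 13.5% of all genes. The comparisons with GFP- Pdgfrα+ cells share those libraries with the known comparison, so their direction is not independent of the choice. No p is given for *Slc13a5* in these comparisons, and nothing is read from its place in their counts.

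The log2 difference between GFP+ and GFP- cells was larger among Pdgfrα+ than among Pdgfrα- cells for 8 of the 9 genes, from 0.55 for *Phex* to 4.24 for *Phospho1*, and smaller for *Enpp1* (-0.62). With libraries centred on their median it was 0.97 for *Phex* and -0.19 for *Enpp1*, and with quantile normalization 1.06 for *Phex* and -0.42 for *Enpp1*. Over all genes, 19.1% had a positive and 25.2% a negative interaction by the limma call. The interaction contains the comparison of the Pdgfrα+ populations, so for the 9 genes it describes the same libraries and nothing is read from the count.

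Lists of other genes of the same processes, from textbook knowledge, were examined next; 45 of 56 listed genes were analysed here. Of 10 genes of pyrophosphate and mineral inhibition, 2 were higher in GFP+ Pdgfrα+ than GFP- Pdgfrα+ cells and 0 lower, beside 3.22% and 2.13% of all genes. *Spp1*, which encodes the mineral-binding protein osteopontin, was 6048 and 3915 in GFP+ Pdgfrα+, 287 and 174 in GFP- Pdgfrα+, 494 and 393 in GFP+ Pdgfrα- and 85.5 and 77.5 in GFP- Pdgfrα- cells. Like *Phex* and *Slc13a5* it was ordered with GFP+ above GFP- cells at either Pdgfrα state; its difference between the Pdgfrα+ populations was known from earlier results. *Enpp4*, a relative of *Enpp1*, was 9.53 and 9.34 in GFP+ Pdgfrα+ and 1.13 and 1.34 in GFP- Pdgfrα+ cells, a difference for which it is named and so given without p, and it was highest, at 18.8 and 11.7, in GFP- Pdgfrα- cells. *Mgp*, the matrix Gla protein that inhibits calcification, was highest in GFP- Pdgfrα+ cells, at 134 and 128, against 71.7 and 80.9 in GFP+ Pdgfrα+ cells, without a call (log2 difference -0.77, adjusted p = 0.122, limma). *Nt5e*, which converts AMP to adenosine, and *Enpp2*, which makes lysophosphatidic acid, were also not called there (-0.83 and -1.05, adjusted p = 0.226 and 0.0942, limma).

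Among 11 genes of phosphate transport and its hormones, 4 were higher in GFP+ Pdgfrα+ than GFP- Pdgfrα+ cells and 1 lower, beside 3.22% and 2.13% of all genes. *Vdr*, the vitamin D receptor, was 174 and 118 in GFP+ Pdgfrα+, 14.5 and 8.17 in GFP- Pdgfrα+, 21.0 and 17.4 in GFP+ Pdgfrα- and 3.59 and 4.13 in GFP- Pdgfrα- cells. All 4 populations were separate for *Vdr*, and the log2 fold change between the Pdgfrα+ populations was 3.59. *Vdr* is among the 4 highest means of its list only through GFP+ Pdgfrα+ cells, so no p is given. *Galnt3*, which glycosylates Fgf23, was 17.3 and 17.1 in GFP+ Pdgfrα+ and 1.13 and 1.34 in GFP- Pdgfrα+ cells. Like *Enpp4*, it is named for this difference. *Dmp1*, a matrix phosphoprotein of osteocytes, was 216 and 143 in GFP+ Pdgfrα+, 3.40 and 6.98 in GFP- Pdgfrα+, 45.5 and 33.3 in GFP+ Pdgfrα- and 2.15 and 2.00 in GFP- Pdgfrα- cells. *Pth1r*, the parathyroid hormone receptor, was 64.8 and 46.7 in GFP+ Pdgfrα+ cells and at most 16.2 in the other libraries; the differences of *Dmp1* and *Pth1r* were known from earlier results. *Xpr1*, the phosphate exporter, went the other way, with 71.4 and 86.1 in GFP+ Pdgfrα+ and 156 and 122 in GFP- Pdgfrα+ cells (log2 fold change -0.81; limma, adjusted p = 0.0169). *Fgfr1*, a receptor of Fgf23, was at 309 to 383 in the 6 libraries of the other populations and at 7.32 and 9.79 in GFP- Pdgfrα- cells.

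Of 8 genes of citrate transport and metabolism, 0 were called higher and 0 lower in GFP+ Pdgfrα+ than GFP- Pdgfrα+ cells in limma, beside 3.22% and 2.13% of all genes, so a count of 0 is close to the share in the table. *Cs*, the citrate synthase of mitochondria, was 164 and 125 in GFP+ Pdgfrα+, 118 and 102 in GFP- Pdgfrα+, 162 and 161 in GFP+ Pdgfrα- and 431 and 396 in GFP- Pdgfrα- cells (log2 fold change between the Pdgfrα+ populations 0.38, adjusted p = 0.193, limma). *Acly*, which splits cytosolic citrate, and *Idh2*, a mitochondrial isocitrate dehydrogenase, had log2 differences of -0.24 and 0.24 there, with overlapping libraries. At an unadjusted p under 0.05, 2 of the 8 genes passed in limma, and edgeR called 0 at its adjusted threshold. In GFP+ Pdgfrα- against GFP- Pdgfrα- cells, 2 of the 8 were higher and 5 lower, beside 30.1% and 23.6% of all genes, and the median over the list was -0.92, beside 0.15 for all genes. The GFP- Pdgfrα- libraries with high *Cs* are also those with the high mitochondrial share given above, and the part of that share was not tested.

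Among 11 relatives and partners of the phospholipid enzymes and channels, 2 were higher in GFP+ Pdgfrα+ than GFP- Pdgfrα+ cells and 0 lower, beside 3.22% and 2.13% of all genes. *Sgms2*, a sphingomyelin synthase and so the source of the substrate of *Smpd3*, was 990 and 658 in GFP+ Pdgfrα+, 146 and 113 in GFP- Pdgfrα+, 57.9 and 52.1 in GFP+ Pdgfrα- and 7.61 and 16.4 in GFP- Pdgfrα- cells (log2 fold change between the Pdgfrα+ populations 2.65, adjusted p = 0.000276, limma). *Sgms1*, the other synthase, was 76.4 and 76.6 in GFP+ Pdgfrα+ and 103 and 104 in GFP- Pdgfrα+ cells, without a call (-0.43, adjusted p = 0.131, limma). *Gja1*, which encodes the gap junction protein connexin 43, was 268 and 205 in GFP+ Pdgfrα+ and 77.0 and 84.8 in GFP- Pdgfrα+ cells (log2 fold change 1.52). Like *Vdr*, it is among the highest means of its list only through GFP+ Pdgfrα+ cells, so no p is given. *Acp1*, a cytosolic phosphatase, was at 44.4 to 56.2 in 6 libraries and at 226 and 289 in GFP- Pdgfrα- cells.

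Of 5 annexins that are found in matrix vesicles, 0 were higher and 1 was lower in GFP+ Pdgfrα+ than GFP- Pdgfrα+ cells, beside 3.22% and 2.13% of all genes. *Anxa2* was 138 and 122 in GFP+ Pdgfrα+ and 230 and 201 in GFP- Pdgfrα+ cells (log2 fold change -0.72; limma, adjusted p = 0.0246). *Anxa5* was 257 and 186 in GFP+ Pdgfrα+, 327 and 265 in GFP- Pdgfrα+, 124 and 125 in GFP+ Pdgfrα- and 10.8 and 8.37 in GFP- Pdgfrα- cells. *Anxa1* and *Anxa6* had log2 differences of -0.78 and -0.20 between the Pdgfrα+ populations (adjusted p = 0.119 and 0.485, limma). These 4 of the 5 annexins were lowest in GFP- Pdgfrα- cells, whereas the other was lowest in GFP+ Pdgfrα- cells. Over all 45 listed genes 8 were higher and 2 lower in GFP+ Pdgfrα+ than GFP- Pdgfrα+ cells, beside 3.22% and 2.13% of all genes, with a median log2 fold change of 0.18 beside 0.00 for all genes. The lists were drawn up with earlier results of these data known, and *Spp1*, *Dmp1* and *Pth1r* are among the 8, so nothing is read from the counts of the lists in this comparison.

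**Figure D4:**
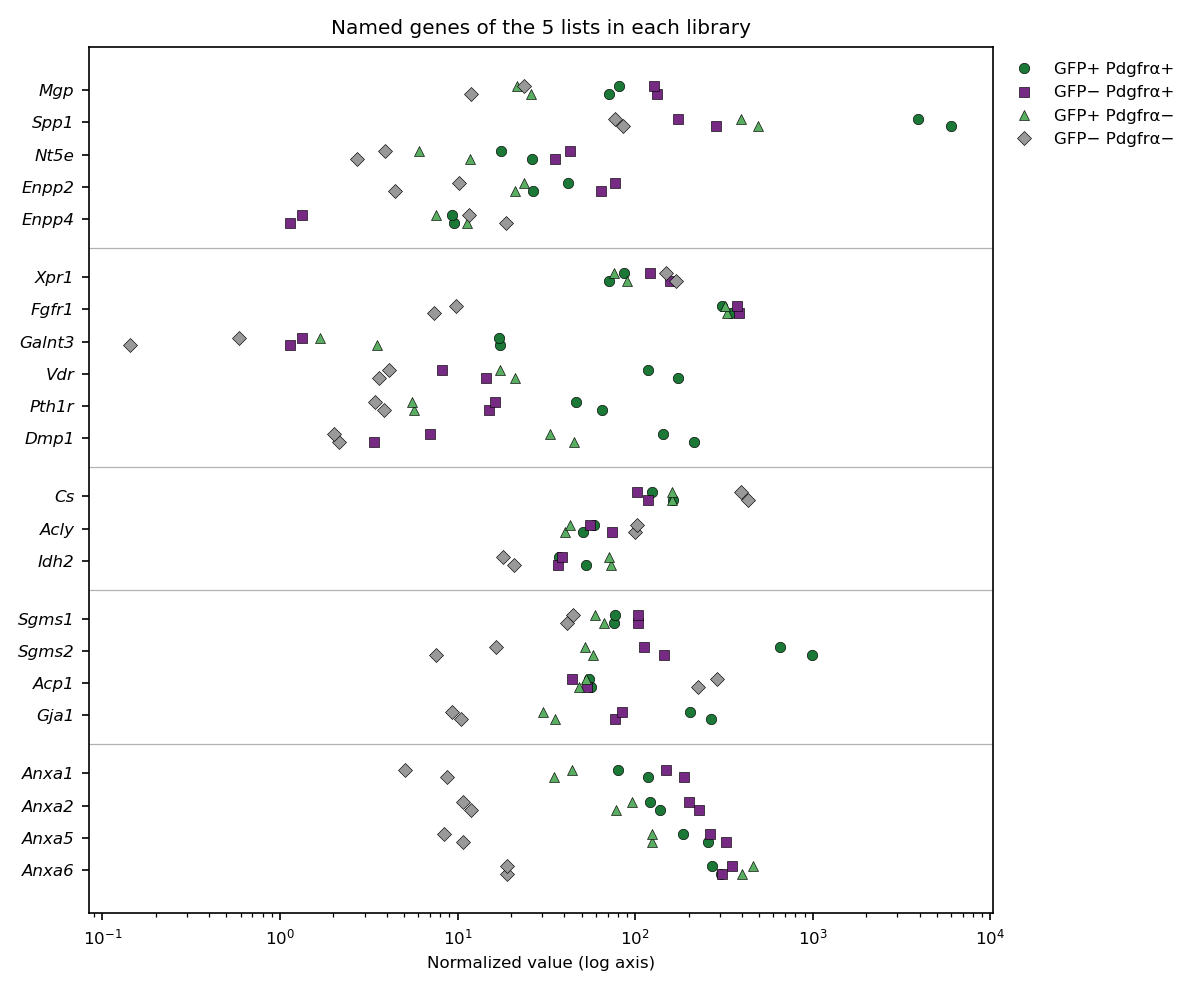
Normalized value (log axis) of the named genes of the 5 lists in each of the 8 libraries; lines separate the lists, in the order pyrophosphate and mineral inhibition, phosphate, citrate, phospholipid enzymes and channels, and annexins. *Spp1*, *Vdr*, *Dmp1* and *Sgms2* are highest in GFP+ Pdgfrα+ cells, whereas *Cs* and *Acp1* are highest in GFP- Pdgfrα- cells.

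Markers of osteoblasts were also highest in GFP+ Pdgfrα+ cells. All 8 osteoblast markers were called higher in GFP+ Pdgfrα+ than GFP- Pdgfrα+ cells, beside 3.22% of all genes; differences of some of them, *Spp1* and *Dmp1* included, were known when the list was drawn up, so nothing is read from the count. Their summed value was 116190 and 87332 in GFP+ Pdgfrα+, 38128 and 35432 in GFP- Pdgfrα+, 9394 and 8614 in GFP+ Pdgfrα- and 1184 and 1682 in GFP- Pdgfrα- cells, with *Col1a1* the most abundant. The sum was higher in GFP- Pdgfrα+ than GFP+ Pdgfrα- cells. By contrast, 4 of the 8 markers (*Bglap*, *Ibsp*, *Spp1* and *Dmp1*) had a higher mean in GFP+ Pdgfrα- cells. The other 4 had a higher mean in GFP- Pdgfrα+ than GFP+ Pdgfrα- cells. These means were 71.3 and 30.1 for *Runx2*, 16096 and 2831 for *Col1a1*, 11406 and 2116 for *Col1a2* and 8919 and 3397.5 for *Sparc*. Of the 9 genes, 3 (*Slc13a5*, *Phex* and *Panx3*) were called higher in GFP+ Pdgfrα- cells and 1 (*Enpp1*) in GFP- Pdgfrα+ cells, beside 13.5% and 14.3% of all genes. The other 5 were not called, and no p is given for *Slc13a5*. The call of *Panx3* ended in some of the alternatives. *Bglap*, the osteocalcin gene, was 42.4 and 35.5 in GFP+ Pdgfrα+, 1.89 and 1.04 in GFP- Pdgfrα+ and 4.49 and 3.99 in GFP+ Pdgfrα- cells, and it had 0 reads in GFP- Pdgfrα- cells. *Ibsp*, the bone sialoprotein gene, was 2466 and 1773 in GFP+ Pdgfrα+, 61.6 and 38.2 in GFP- Pdgfrα+, 152 and 135 in GFP+ Pdgfrα- and 8.47 and 13.1 in GFP- Pdgfrα- cells. The part of a difference in the share of osteoblasts in the values of the 9 genes was not tested.

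Several of the 9 genes are also known from hypertrophic chondrocytes. The summed value of the 2 markers of hypertrophic chondrocytes analysed here was 707 and 557 in GFP+ Pdgfrα+ cells and 35.9 to 98.5 in the other libraries (1 of the 2 called higher in GFP+ Pdgfrα+ than GFP- Pdgfrα+ cells, beside 3.22% of all genes). In GFP+ Pdgfrα+ cells nearly all of it came from *Mmp13* (675 and 546), which osteoblasts express as well, and in GFP- Pdgfrα- cells most came from *Col10a1*. *Col10a1*, the defining collagen of hypertrophic chondrocytes, was 32.2 and 11.1 in GFP+ Pdgfrα+, 15.5 and 14.1 in GFP- Pdgfrα+, 14.2 and 27.9 in GFP+ Pdgfrα- and 63.9 and 73.5 in GFP- Pdgfrα- cells. It was thus highest in GFP- Pdgfrα- cells. The summed value of 7 chondrocyte markers was 297 and 374 in GFP+ Pdgfrα+ and 609 and 1971 in GFP- Pdgfrα+ cells, with *Col2a1* the most abundant, and 3 of the 7 were called lower in GFP+ Pdgfrα+ cells, beside 2.13% of all genes. *Matn1*, a chondrocyte marker, was at the floor in every population but GFP- Pdgfrα-.

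No list of the remaining cell types had its highest mean sum in GFP+ Pdgfrα+ cells. Summed values in the 2 GFP+ Pdgfrα+ libraries were 59.7 and 81.6 for 4 osteoclast markers, 95.3 and 61.5 for 6 Schwann cell precursor markers and 64.9 and 59.5 for 6 muscle markers. They were 368 and 273 for 5 markers of pericytes and smooth muscle, 41.2 and 42.8 for 4 tendon markers, 47.6 and 69.4 for 5 endothelial markers, 5.11 and 15.1 for 5 leukocyte markers and 39.6 and 38.7 for 7 erythroid markers. The GFP+ Pdgfrα- libraries had the highest sums of Schwann cell precursor markers (434 and 404, led by *Erbb3*), muscle markers (767 and 801, led by *Pax7*) and pericyte and smooth muscle markers (1577 and 2075, led by *Rgs5*). The GFP- Pdgfrα+ libraries had the highest sums of tendon markers (570 and 509, led by *Tnmd*). Between the Pdgfrα+ populations, 3 Schwann cell precursor, 2 muscle, 2 pericyte and smooth muscle and 1 osteoclast marker were called higher in GFP+ Pdgfrα+ cells, and 4 tendon markers and 1 leukocyte marker lower, beside 3.22% and 2.13% of all genes. *Ptprc*, the gene of CD45, had 0 reads in GFP- Pdgfrα+ cells, values of 0.690 to 1.58 in the GFP+ libraries and of 11.3 and 6.72 in GFP- Pdgfrα- cells, and *Pecam1*, the gene of CD31, was between 3.91 and 27.9 in all libraries.

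The 9 genes were then compared with each other over the 8 libraries by the correlation of log2(value + 1). The libraries fall into 4 populations, so a coefficient mainly follows the population means, and it is given as a description. Over the 28 pairs without *Enpp1*, Pearson's r was between 0.61 and 0.98, with a median of 0.92. The 8 pairs with *Enpp1* gave 0.50 to 0.77. The highest was that of *Slc13a5* with *Phex* (0.98), and *Smpd3* with *Panx3* (0.98) and with *Enpp6* (0.97) came next.

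Outside the 9 genes, those of most like pattern were searched among genes with a mean value of at least 5. *Slc13a5* was most like *Bglap* (r = 0.99 over 8 libraries), *Mmp13* (0.99) and *Sema7a* (0.99), and *Alpl* was most like *Hpgd* (0.99) and *Spp1* (0.99). *Phex* was most like *Ibsp* (0.99) and *Mef2c* (0.99). *Enpp1* was most like *Golim4* (0.998), *Plcd1* (0.997) and *Aff2* (0.997). *Phospho1* was nearest to *Ankrd6* (0.96), *Edem3* (0.95) and *Snd1* (0.95), and *Ank* to *Galnt7* (0.97), *Snd1* (0.96) and *Klf5* (0.96). *Smpd3* was nearest to *Entpd3* (0.99), *Syt6* (0.99) and *Rhpn2* (0.98), *Enpp6* to *Galnt3* (0.99), *Entpd3* (0.98) and *Gdpd2* (0.98), and *Panx3* to *Spata13* (0.97), *Bglap* (0.97) and *Syt6* (0.97).

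The libraries of GFP+ Pdgfrα+ cells differed from each other in a direction that several of these genes shared. Replicate 1 over replicate 2 was 2.14 for *Phospho1*, 1.59 for *Panx3*, 1.49 for *Alpl*, 1.37 for *Smpd3*, 1.36 for *Enpp1*, 1.32 for *Ank* and 1.13 for *Slc13a5*. It was 0.993 for *Phex* and 0.829 for *Enpp6*. All 8 osteoblast markers were higher in replicate 1, from 1.19 for *Bglap* to 1.81 for *Runx2*. Over the 11004 genes with a mean value of at least 5, the median ratio was 1.03, with 5% of genes below 0.556 and 5% above 1.87. *Phospho1* lay outside that range and the other 8 genes within it.

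The 250 bases before the transcription starts of the 9 genes were also compared, as a description. RefSeq windows of GRCm38.p6 were found for 7 of the 9 genes, 9 windows in all; those of *Smpd3* and *Panx3* were not analysed here. The motifs, searched on both strands, were the runt core TGTGGT, the GC box GGGCGG, the TATA motif TATAAA, the homeodomain core TAATTA, the AP-1 motif TGACTCA and the E-box CACGTG. The GC box was in 6 of the 9 windows and in 32.7% of all 32851 windows of the same length. The runt core was in 1 (*Enpp1*; 14.0% of all), the TATA motif in 1 (an internal start of *Alpl*; 12.4%), the AP-1 motif and the E-box in 1 each (both *Phospho1*; 4.46% and 6.02%) and the homeodomain core in 0 (4.84%). A match describes letters only and says nothing of a factor bound there. The GC content was 81.2% for *Ank* and 75.6% for *Phospho1*, and 38.4% for *Enpp6* and 39.2% for *Phex*, beside a median of 52.4% over all windows.

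The windows of *Alpl* and *Enpp1* are shown, since the enzymes act on pyrophosphate in opposite directions and their genes differ in pattern. Both are on the minus strand, at chr4:137796385-137796634 and chr10:24712160-24712409 of GRCm38.p6, and are written 5′ to 3′ on that strand, ending at the base before the start. Neither overlaps an annotated exon where it lies in NCBIM37 (chr4:137352300-137352549 and chr10:24431966-24432215, by exact match). Capitals mark the motifs, the GC box in *Alpl* and the runt core (as ACCACA) and the GC box in *Enpp1*.
*Alpl*: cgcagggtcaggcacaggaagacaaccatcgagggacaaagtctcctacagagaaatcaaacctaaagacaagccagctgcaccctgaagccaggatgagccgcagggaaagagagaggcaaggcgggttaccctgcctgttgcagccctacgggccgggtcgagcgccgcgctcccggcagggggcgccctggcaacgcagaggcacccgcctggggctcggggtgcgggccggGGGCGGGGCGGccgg
*Enpp1*: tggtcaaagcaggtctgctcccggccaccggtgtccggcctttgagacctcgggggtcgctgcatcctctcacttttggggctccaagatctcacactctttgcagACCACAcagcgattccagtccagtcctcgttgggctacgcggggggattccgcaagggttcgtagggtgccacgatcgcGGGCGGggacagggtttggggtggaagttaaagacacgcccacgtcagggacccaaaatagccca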

How the data were processed

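RNA-seq of 4 sorted populations, with 2 libraries each, was analysed. Per the labels and the study's methods, the authors removed adaptors with cutadapt, quantified reads with RSEM 1.17 on the NCBIM37 transcriptome and normalized with limma. The deposited signal is reads plus 0.5 per 1e6 of the effective library size, linear. Whole reads came out of 100% of values (tolerance 0.1 reads); on them edgeR 4.0.16 called 893 genes between the Pdgfrα+ populations and voom 1057. Identifiers were matched to GENCODE M1 of the same build, 15849 of 15880.

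Values were fitted as log2(value + 1) in limma 3.58.1 (R 4.3.3; lmFit, eBayes with trend; 1 coefficient per population, 4 residual degrees of freedom), with p adjusted by Benjamini–Hochberg across 15880 genes and calls at an adjusted p of at most 0.05. This understates the change of low genes. An exact permutation test of 2 libraries against 2 cannot go below 0.333. The 2 libraries of each population were further apart than counting alone gives (chi-square over degrees of freedom, 4.12 to 9.12). Python 3.11.15, numpy 2.4.6, pandas 2.3.3 and matplotlib 3.10.9 made tables and figures.

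Named genes are the 9 genes, up to 4 genes of each list with the highest mean, those called between the Pdgfrα+ populations whose libraries do not overlap, and for each of the 9 the 3 of most like pattern. Of these, 2 genes are not reported here. The 9 genes and the lists were chosen with earlier results of these data known. Alternatives were the replicate number as a block, only the compared populations, no trend, pseudocounts of 0.1 and 0.5, a filter (over 2 in at least 2 libraries, 14333 genes), quantile normalization, centring on the median, voom, edgeR, and leaving out each replicate or library. A fit without the GFP- Pdgfrα- libraries was added after seeing the data.

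The study describes each independent set of samples as pooled from littermates, which may mean that libraries of the same number share litters; no label states it. Across all genes, their deviations from population means correlated at 0.004 to 0.081 over the 6 pairs of populations.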

Additional observations from a re-analysis of the deposited data

Results flagged for a closer look

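The log2 difference between GFP+ and GFP- cells was larger among Pdgfrα+ than among Pdgfrα- cells, by the interaction term of the limma fit, by 4.24 for *Phospho1*, 3.62 for *Smpd3*, 3.04 for *Panx3*, 2.79 for *Slc13a5*, 2.76 for *Enpp6*, 2.67 for *Ank* and 1.04 for *Alpl*. The median over all genes was -0.16. These values contain the comparison of the Pdgfrα+ populations, which was known when the genes were put forward, so they are a description and no p is given for them. The 7 genes are those that passed the threshold of this term, so which genes are listed depends on the known comparison and nothing is read from it. In some of the alternatives *Alpl* or *Enpp6* would not be listed, and *Phex* (0.55) would be with centring on the median (0.97) and with quantile normalization (1.06). With the replicate block *Enpp1* would pass the threshold as well, with a smaller difference among Pdgfrα+ cells (-0.62).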

How the results depend on the processing

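There were 5 comparisons that were not used to choose the genes and do not contain the one that was, and 2 of them share the GFP+ Pdgfrα+ libraries with it. Those of GFP- Pdgfrα+ with GFP- Pdgfrα- and with GFP+ Pdgfrα- cells share its GFP- Pdgfrα+ libraries. Only GFP+ Pdgfrα- over GFP- Pdgfrα- cells shares no library with it. In the 5 comparisons 31 differences of the 9 genes were called, those of *Slc13a5* given without p included. Alternatives other than leaving out libraries gave 323 values of them, of which 316 kept their direction and call, 7 lost the call and 0 changed sign; leaving out a library or a replicate number gave 310, of which 283 kept direction and call (or, where no test was possible, stayed within 1 standard error), 9 lost the call, 18 moved further and 0 changed sign. With 1 library left out, the lone library is assumed to vary like the other populations. The number called stayed at 9 for GFP+ Pdgfrα+ over GFP+ Pdgfrα- and over GFP- Pdgfrα- cells under every alternative that gave a test. It was 4 to 7 for GFP+ Pdgfrα- over GFP- Pdgfrα- cells, and 3 to 4 for GFP- Pdgfrα+ over GFP- Pdgfrα- cells and for GFP- Pdgfrα+ against GFP+ Pdgfrα- cells. With the replicate block it was 9 for GFP+ Pdgfrα+ over GFP+ Pdgfrα- and over GFP- Pdgfrα- cells, 6 for GFP+ Pdgfrα- over GFP- Pdgfrα- cells, 3 for GFP- Pdgfrα+ over GFP- Pdgfrα- cells and 4 for GFP- Pdgfrα+ against GFP+ Pdgfrα- cells, with no call changed. Without the GFP- Pdgfrα- libraries it was again 9 for GFP+ Pdgfrα+ over GFP+ Pdgfrα- cells and 4 for GFP- Pdgfrα+ against GFP+ Pdgfrα- cells.

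Differences that were not called changed sign as follows, and the cause was not tested. With quantile normalization *Smpd3* was at -0.04 for GFP+ Pdgfrα- over GFP- Pdgfrα- cells and at -0.42 for GFP- Pdgfrα+ over GFP- Pdgfrα- cells, where *Panx3* was at -0.46; with centring on the median they were at -0.19 and -0.30 there. Leaving out a library or replicate gave -0.30 to 0.11 for *Alpl*, -0.82 to 0.62 for *Phospho1* and -0.83 to 0.28 for *Enpp6* between GFP- Pdgfrα+ and GFP+ Pdgfrα- cells. It gave -0.83 to 0.30 for *Phospho1* in GFP+ Pdgfrα- over GFP- Pdgfrα- cells, -0.15 to 0.68 for *Smpd3* and -0.89 to 1.19 for *Panx3* in GFP- Pdgfrα+ over GFP- Pdgfrα- cells, and -0.0764 to 0.37 for *Enpp1* between the Pdgfrα+ populations.

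The count over all genes for GFP+ Pdgfrα+ over GFP- Pdgfrα+ cells was 849; it was 532 without the trend and 246 to 1083 with a library left out. The latter range was 2158 to 4056 for GFP+ Pdgfrα+ over GFP+ Pdgfrα- cells (3848 in the reported fit), where the listed genes called were 11 to 19 (18), and 2757 to 4642 for GFP- Pdgfrα+ against GFP+ Pdgfrα- cells (4427). Fewer libraries enter these fits. Centring on the median changed the split of higher and lower calls for GFP+ Pdgfrα- over GFP- Pdgfrα- cells from 4787 and 3740 to 3550 and 5569, for GFP- Pdgfrα+ over GFP- Pdgfrα- cells from 5226 and 4250 to 3913 and 5720, for GFP+ Pdgfrα+ over GFP- Pdgfrα- cells from 5221 and 4189 to 3834 and 5846 and for the interaction from 3032 and 3999 to 4427 and 2989. With quantile normalization the split was 4059 and 5132 for GFP+ Pdgfrα+ over GFP- Pdgfrα- cells, 3871 and 4419 for GFP+ Pdgfrα- over GFP- Pdgfrα- cells, 4249 and 5086 for GFP- Pdgfrα+ over GFP- Pdgfrα- cells, 1986 and 2102 for GFP+ Pdgfrα+ over GFP+ Pdgfrα- cells (2080 and 1768 in the reported fit), 2241 and 2408 for GFP- Pdgfrα+ against GFP+ Pdgfrα- cells (2277 and 2150) and 3307 and 3306 for the interaction. Voom changed the split for GFP+ Pdgfrα+ over GFP- Pdgfrα+ cells from 511 and 338 to 521 and 536. With 1 library per population after leaving out a replicate number no test and no count was possible. Values near the floor, those of *Enpp6* outside GFP+ Pdgfrα+ cells and of *Slc13a5* in GFP- cells, are limited by depth.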
